A study of Mus musculus with 6 samples.

Results

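This report describes miR-199a and miR-214 in the atherosclerotic mouse aorta, microRNAs that are known from mesenchymal cells. An assay was taken as a member when its name began with miR-199a or miR-199b or was miR-214, without passenger (star) strands. Of 517 microRNA assays, 3 met this rule, namely miR-199a-3p, miR-199a-5p and miR-214. No assay for an unstarred miR-199b was among those analysed, although the set was proposed with it. The only assay named for miR-199b is the passenger-strand assay miR-199b*, which is not a member. The 3p strand of miR-199b has the same sequence as miR-199a-3p and is therefore read by that member's assay. The Dicer_KO group consisted of 3 aortas from male mice with floxed Dicer on both alleles (LysM-Cre/Dicerflox/flox/Apoe-/-), and the Dicer_WT group of 3 aortas from male littermates with wild-type Dicer (LysM-Cre/Dicerwt/wt/Apoe-/-). All 6 mice therefore carried the LysM-Cre transgene and lacked Apoe, and all were fed a diet with 21% crude fat for 12 weeks from an age of 6 to 8 weeks. Lysozyme M drives Cre in macrophages, monocytes and neutrophils, and Dicer itself was not measured. Each microRNA was read once per aorta by TaqMan PCR as a threshold cycle (Ct), where 1 cycle less means about 2 times the RNA. Replicates are labelled as biological, and each was counted as 1 animal.

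Dicer is the endonuclease that cuts microRNA precursor hairpins into mature microRNAs, and each hairpin can yield a 5p and a 3p arm. In mouse, miR-199a and miR-214 are made from a long noncoding transcript, Dnm3os, which is active in mesenchymal tissues such as developing cartilage, fibroblasts and vessel wall. Both have been studied in fibrosis and in smooth muscle and endothelial cells. The samples are whole vessels, and which of their cells supplied these microRNAs was not measured. Although the labels name macrophages as the cell type, they name the whole vessel as the tissue. The 3 assays taken as smooth muscle markers (miR-143, miR-145 and miR-133a), the 2 endothelial and the 6 myeloid and leukocyte marker assays were detected in all 6 aortas. In such tissue, fewer cells of a type and less RNA per cell cannot be told apart.

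The mature sequences are shown because they decide what the assays can and cannot separate. They are RefSeq's (GRCm38.p6), written 5′ to 3′ with the seed, bases 2 to 8, in capitals.
miR-199a-3p: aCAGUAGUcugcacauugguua
miR-199b-3p: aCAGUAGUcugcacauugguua
miR-199a-5p: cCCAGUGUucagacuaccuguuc
miR-214-3p: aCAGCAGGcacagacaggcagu
miR-214-5p: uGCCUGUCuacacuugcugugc
The 3p strands of miR-199a and miR-199b are identical, so the miR-199a-3p assay reads the product of 3 hairpins together. These hairpins are Mir199a-2 (chr1:162217814-162217923, plus strand), Mir199a-1 (chr9:21496495-21496564, minus strand) and Mir199b (chr2:32318460-32318569, plus strand). The miR-199a-5p strand comes from the Mir199a-1 and Mir199a-2 hairpins. miR-214 comes from 1 hairpin, Mir214 (chr1:162223368-162223477, plus strand), and its assay carries the older name of miR-214-3p. The seeds of miR-199a-3p and miR-214-3p differ at 2 of their positions, and those of the miR-199a arms at 4. Among the 1679 mature microRNA names compared, the seed of miR-199a-5p was found under no other name. That of miR-199a-3p was found only in miR-199b-3p, and that of miR-214-3p only in miR-761. For Mir199b only the 3p strand was listed, so the seed of its other arm was not compared, and miR-199a-5p cannot be called unique in its seed.

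The annotation places these hairpins inside dynamin genes, on the opposite strand each time. Mir199a-2 and Mir214 lie within Dnm3, Mir199a-1 within Dnm2 and Mir199b within Dnm1. Mir199a-2 and Mir214 are separated by 5444 bases and both lie within Dnm3os (chr1:162217623-162225550, plus strand), 191 and 5745 bases after its start. The Dnm3os promoter, from 250 bases before the start to 50 after it (chr1:162217373-162217672, plus strand, GRCm38.p6), is shown since this transcript holds a hairpin of each member, with its CArG box in capitals.
Dnm3os promoter: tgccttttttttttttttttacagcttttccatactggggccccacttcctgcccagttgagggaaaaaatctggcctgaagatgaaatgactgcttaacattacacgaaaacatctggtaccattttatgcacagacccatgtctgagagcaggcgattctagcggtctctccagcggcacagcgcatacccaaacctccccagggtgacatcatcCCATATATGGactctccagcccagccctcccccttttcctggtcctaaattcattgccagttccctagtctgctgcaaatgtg
The CArG box is the motif bound by serum response factor, a regulator of smooth muscle genes. Its 1 match, CCATATATGG, begins at position -33 relative to the start, and 1.63% of 32851 promoter windows of this length hold such a match on either strand. The E-box (CANNTG, the same on both strands) had 3 matches, and 72.3% of the windows hold at least 1. No measurement of binding was made, so these matches are descriptions of the letters only.

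The comparison asked what the loss of Dicer in lysozyme M-expressing cells left of these microRNAs in the vessel wall. Levels of all 3 members averaged lower in Dicer_KO aortas, with mean folds of 0.538 for miR-214, 0.662 for miR-199a-3p and 0.745 for miR-199a-5p, but 0 of the 3 passed the test. Over all 377 assays tested, 7 (1.86%) passed as lower and 0 (0.00%) as higher (limma, adjusted p under 0.05). At an unadjusted p under 0.05, 0 of the 3 members were lower, against 92 of all assays (24.4%), and 9 (2.39%) were higher. The genotypes did not overlap for 0 of the 3 members, against 123 assays lower in Dicer_KO (32.6%) and 9 higher (2.39%). Markers of other tissues also averaged differently between the same aortas, without passing the test. Log2 fold changes were 1.36 and 1.12 for the erythroid miR-451 and miR-486, 1.36 for the liver microRNA miR-122 and 0.91 for miR-378, taken as an adipose marker (limma adjusted p = 0.176, 0.202, 0.228 and 0.190). The genotypes overlapped for miR-486, miR-122 and miR-378. They did not for miR-451, higher in Dicer_KO like 2.39% of all assays. Without Dicer_WT replicate 3, miR-122 was at 0.64, the median of the 2 erythroid markers at 0.74 and miR-378 at 0.97. The medians were -0.42 for the 3 smooth muscle markers, 0.23 for the 2 endothelial, 0.09 for the 3 striated muscle and -0.18 for the 7 epithelial markers, with 0 past the threshold. The part of tissue makeup in the members' values was not tested. In the authors' relative quantities, the aorta that made the groups overlap was Dicer_KO replicate 1 in each member. For miR-199a-5p, Dicer_KO replicate 3 only just stayed below the Dicer_WT aortas.

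miR-214, from the single Mir214 hairpin, was read at Ct 20.26, 21.73 and 21.98 in Dicer_KO aortas, against 19.69, 20.62 and 20.30 in Dicer_WT aortas. As relative quantities on the authors' scale, which sets the Dicer_WT geometric mean to 1, these were 0.997, 0.439 and 0.357 in Dicer_KO aortas and 1.23, 0.797 and 1.02 in Dicer_WT aortas. Dicer_KO replicates 2 and 3 lay below every Dicer_WT aorta, whereas Dicer_KO replicate 1 lay among them. The means were 0.597 ± 0.348 in Dicer_KO and 1.02 ± 0.218 in Dicer_WT aortas (SD, n = 3 each). The log2 fold change was -0.89 ± 0.430 (SE, n = 3 each, limma adjusted p = 0.226), with a 95% interval of -1.95 to 0.16. The spread of log2 values among Dicer_KO aortas was 0.784 (SD), against 0.316 among Dicer_WT aortas, and 60 of the 377 assays had a larger Dicer_KO spread.

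The miR-199a-3p strand, which is shared by the 3 miR-199 hairpins, was read at Ct 18.92, 19.65 and 19.97 in Dicer_KO aortas, against 18.20, 18.86 and 19.02 in Dicer_WT aortas. Its relative quantity was 0.882, 0.651 and 0.504 in Dicer_KO aortas, against 1.22, 0.947 and 0.866 in Dicer_WT aortas. Here too Dicer_KO replicate 1 alone reached into the Dicer_WT range. The log2 fold change was -0.60 ± 0.273 (SE, n = 3 each, limma adjusted p = 0.223), with a 95% interval of -1.27 to 0.075.

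The miR-199a-5p strand, the other arm of the same hairpins, was read at later cycles, at Ct 24.08, 25.01 and 24.52 in Dicer_KO aortas against 23.64, 23.67 and 24.34 in Dicer_WT aortas. Its relative quantity was 0.904, 0.580 and 0.788 in Dicer_KO aortas, against 1.02, 1.23 and 0.794 in Dicer_WT aortas. Dicer_KO replicate 3, at 0.788, was only just below the lowest Dicer_WT aorta, at 0.794. With mean centring, which removes the level shared by an aorta's assays, it lay inside the Dicer_WT range. Its log2 deviation was then 0.21, against -0.17 to 0.24 in Dicer_WT aortas. The aorta with the lowest value was Dicer_KO replicate 2, not replicate 3 as for the other 2 members. The log2 fold change was -0.43 ± 0.265 (SE, n = 3 each, limma adjusted p = 0.296), with a 95% interval of -1.08 to 0.23, and it was -0.245 without Dicer_KO replicate 2 and -0.275 without Dicer_WT replicate 2. Amplification differs between assays, so the Ct of one strand is no measure of its amount against the other.

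The passenger strands of the same hairpins were read on the second array card, with its own wells for the control RNAs. miR-214*, from the Mir214 hairpin, had relative quantities of 0.960, 0.717 and 0.607 in Dicer_KO aortas, against 1.11, 1.11 and 0.818 in Dicer_WT aortas. miR-199b* had 0.951, 0.602 and 0.546 in Dicer_KO aortas, against 1.07, 1.22 and 0.766 in Dicer_WT aortas. Both had the same arrangement as miR-214, with Dicer_KO replicates 2 and 3 below every Dicer_WT aorta and replicate 1 among them. Their log2 fold changes were -0.42 ± 0.250 and -0.56 ± 0.302 (SE, n = 3 each, limma adjusted p = 0.274 and 0.245), and neither passed the test. Without Dicer_KO replicate 3, miR-214* was at -0.27. The miR-214 guide strand therefore had a log2 fold change of -0.89 beside -0.42 for its passenger strand, a difference that was not tested. In the authors' deposited table the folds of Dicer_KO over Dicer_WT were 0.588 for miR-214, 0.672 for miR-199a-3p and 0.745 for miR-199a-5p, which equal the ratios of the arithmetic means.

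**Figure D1:**
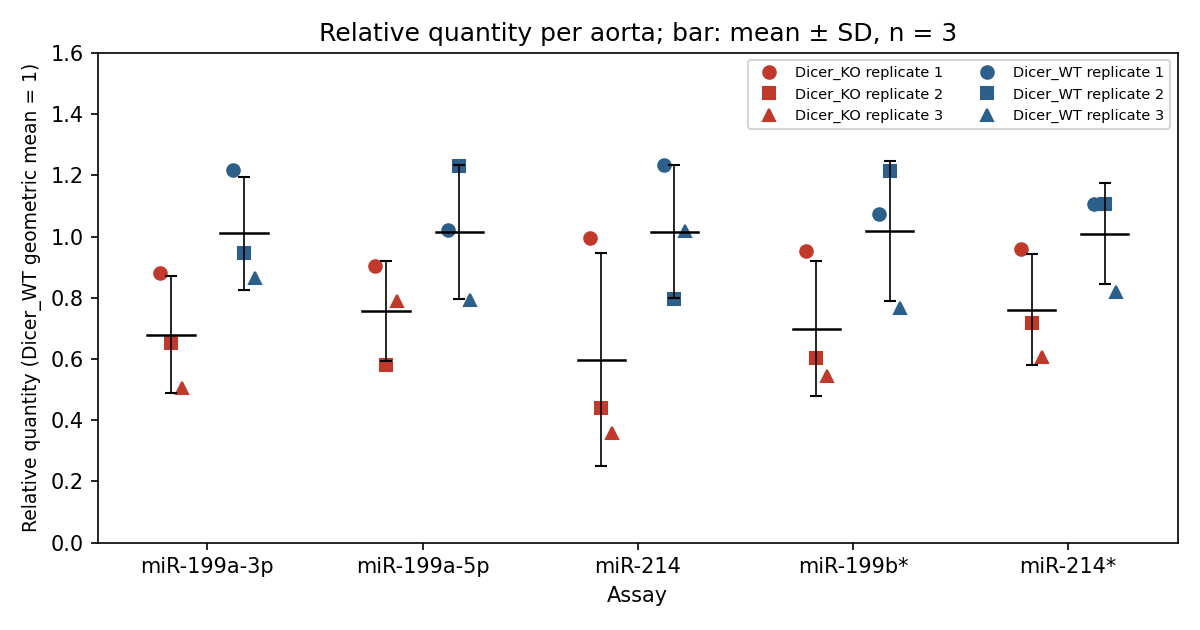
Relative quantity (vertical axis, linear, geometric mean of Dicer_WT = 1) of the 3 members and the 2 passenger strands in each aorta, Dicer_KO in red left of Dicer_WT in blue, with marker shapes for replicate numbers and black bars for mean ± SD (n = 3). In each assay Dicer_KO replicate 1 (red circle) lies within the Dicer_WT range, and miR-214 has the lowest single value, 0.357 in Dicer_KO replicate 3.

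Dicer_KO replicate 1 decided the call of miR-214. Without it, the log2 fold change was -1.34 ± 0.258 (SE, 2 against 3 aortas, limma adjusted p = 0.0413), and adjusted p-values from limma ran up to 0.536 among 19 alternatives. This was the only one in which miR-214 was called lower. In the same fit 55 of 376 assays (14.6%) were called lower and 9 (2.39%) higher, and miR-214 ranked 43rd from the lowest. Without that aorta, miR-199a-3p was at -0.80 (limma adjusted p = 0.0753) and miR-199a-5p at -0.57 (adjusted p = 0.177), and neither was called. The arrangement with Dicer_KO replicates 2 and 3 below every Dicer_WT aorta and replicate 1 not was found in 79 of the 377 assays (21.0%). It was not particular to these microRNAs. The labels do not set Dicer_KO replicate 1 apart from the other Dicer_KO aortas.

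The distribution of all assays was itself shifted, and the members have to be read against it. The median log2 fold change of the 377 assays was -0.42, and 295 assays (78.2%) lay below 0. Counted from the lowest, miR-214 ranked 69th, miR-199a-3p 131st and miR-199a-5p 186th of 377. Relative to that median, miR-214 lay at -0.48, miR-199a-3p at -0.18 and miR-199a-5p at -0.01. Thus miR-199a-5p sat at the centre of the distribution and miR-214 in its lower part, with many assays beyond it.

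**Figure D2:**
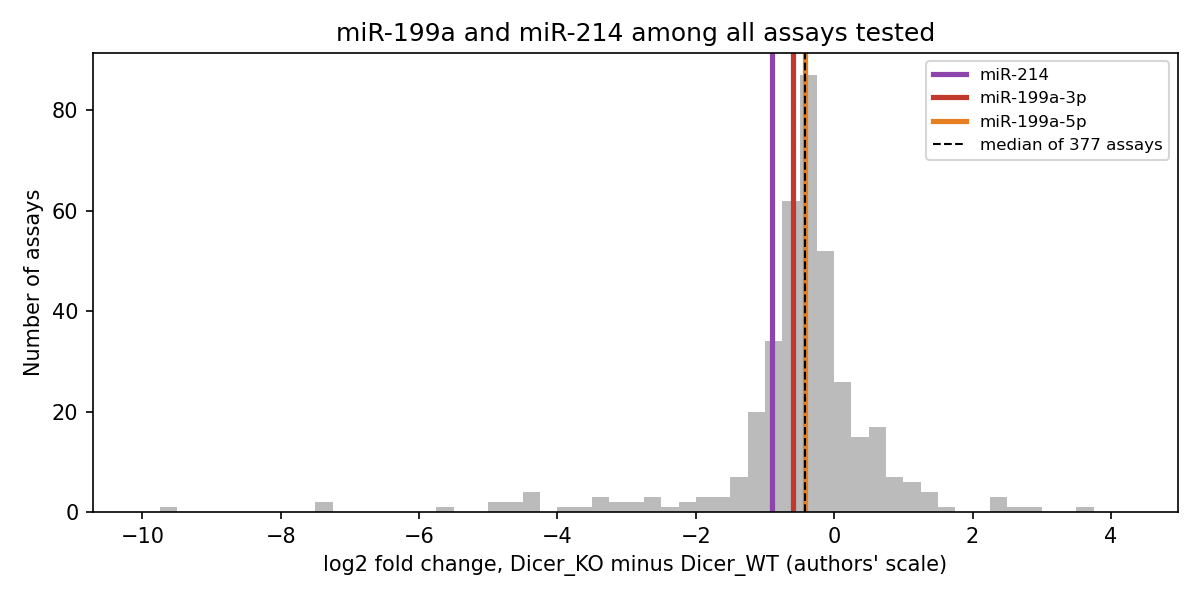
Histogram of the log2 fold change (horizontal axis, Dicer_KO minus Dicer_WT on the authors' scale) of the 377 assays tested, with the number of assays on the vertical axis. Coloured lines mark miR-214 at -0.89, miR-199a-3p at -0.60 and miR-199a-5p at -0.43, and the dashed line the median at -0.42.

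The scale of these values rests on control RNAs, which are made without Dicer. The authors' references on the members' card were U6, snoRNA135 and snoRNA202. The mean of the 2 other control RNAs on that card, U87 and Y1, deviated on the log2 scale by -0.33, -0.57 and -0.63 in Dicer_KO aortas, against 0.11, -0.06 and -0.05 in Dicer_WT aortas. The genotypes did not overlap for this pair, which differed by -0.51, on the same scale on which the members averaged -0.89, -0.60 and -0.43. On the second card the same pair differed by -0.64, and there the genotypes overlapped. The part of these control RNAs in the members' values was not tested. Relative to U87 and Y1, miR-214 was at -0.38 (limma adjusted p = 0.536) and miR-199a-3p at -0.08 (adjusted p = 0.809), whereas miR-199a-5p turned to 0.09 (adjusted p = 0.839) and the median of all assays to 0.16. Without any normalization the values were -1.12, -0.82 and -0.65, with the median of all assays at -0.64. The distance of miR-214 from the median moved less, with -0.54 relative to U87 and Y1, -0.48 without normalization, -0.45 relative to U6 alone, -0.44 after quantile normalization and -0.40 with mean centring. Single aortas moved it more, to -0.82 without Dicer_KO replicate 1 and -0.28 without Dicer_KO replicate 3. For miR-199a-5p this distance lay on either side of 0, from -0.31 after quantile normalization to 0.066 with mean centring, and at 0.18 without Dicer_KO replicate 2.

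**Figure D3:**
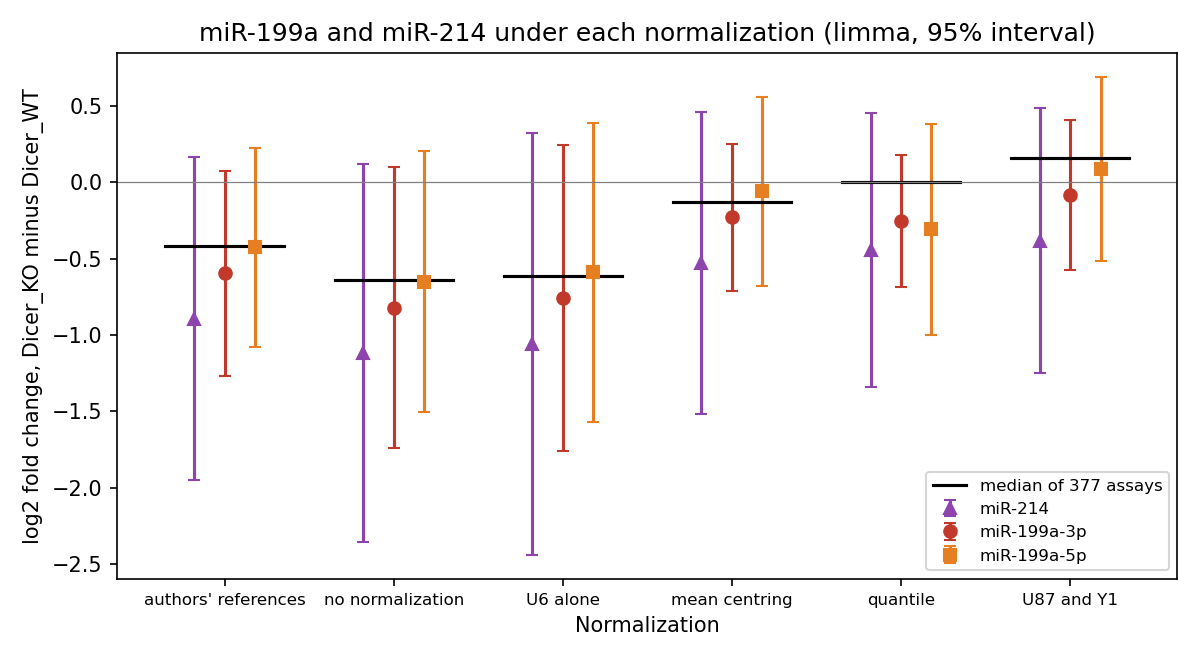
Log2 fold change (vertical axis, Dicer_KO minus Dicer_WT) with 95% limma interval for miR-214, miR-199a-3p and miR-199a-5p under 6 normalizations (horizontal axis), and the median of the 377 assays as a black line. All intervals include 0, and miR-214 lies below the median in each, from -1.12 without normalization to -0.38 relative to U87 and Y1.

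Across the 6 aortas the members did not move as one. On the authors' scale the Pearson correlation of log2 values was 0.939 between miR-199a-3p and miR-214, 0.638 between the 2 arms of miR-199a and 0.580 between miR-199a-5p and miR-214. As deviations from the mean of their genotype these were 0.885, 0.336 and 0.271, and with mean centring 0.948, 0.122 and 0.154. The passenger strands miR-199b* and miR-214* correlated at 0.985. These are descriptions over 6 aortas, and the assays of a card share each aorta's RNA and its reference wells. Among the 3 members, the pair that held together in every version was thus miR-199a-3p and miR-214. The median correlation of miR-199a-3p with 329 other assays was 0.757, 0.607 as deviations and 0.201 with mean centring. With miR-214* it correlated at 0.942, 0.898 and 0.906 in the same order. miR-199a-5p parted from both members in a Dicer_KO and in a Dicer_WT aorta. In Dicer_KO replicate 3, the log2 deviation from the Dicer_WT mean was -0.34 for miR-199a-5p, -0.99 for miR-199a-3p and -1.49 for miR-214. In Dicer_WT replicate 2 these were 0.30, -0.08 and -0.33.

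**Figure D4:**
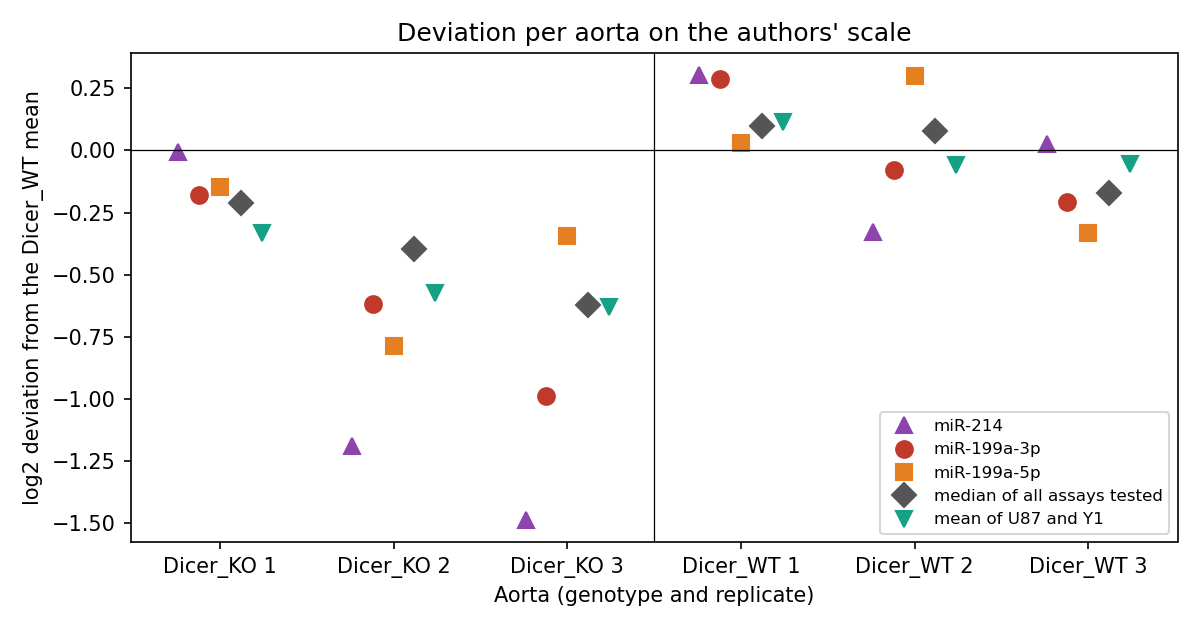
Log2 deviation from the Dicer_WT mean (vertical axis) in each aorta (horizontal axis, Dicer_KO left of Dicer_WT) for the 3 members, the median of all assays tested and the mean of the control RNAs U87 and Y1. In Dicer_KO replicates 2 and 3 miR-214 lies at -1.19 and -1.49, below the median of all assays at -0.40 and -0.62, and in Dicer_KO replicate 1 at -0.005, above it.

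Ratios of assays in the same aorta and card need no reference RNA, and 9 such ratios were compared. Relative to its Dicer_WT mean, the log2 ratio of miR-214 over miR-199a-3p was 0.18, -0.57 and -0.50 in Dicer_KO aortas, against 0.02, -0.25 and 0.23 in Dicer_WT aortas. The genotypes overlapped, with a difference of -0.30 (exact permutation p = 0.3, two-sided, adjusted p = 0.643 over the 9 ratios). With 3 aortas against 3, such a test cannot go below 0.1. The ratio of miR-214 over miR-199a-5p differed by -0.47 (exact permutation p = 0.5, adjusted p = 0.643) and that of miR-199a-3p over miR-199a-5p by -0.17 (exact permutation p = 0.6, adjusted p = 0.675). The first of these was -0.78 without Dicer_WT replicate 2, -0.77 without Dicer_KO replicate 1, -0.13 without Dicer_KO replicate 3, -0.29 without Dicer_WT replicate 3 and -0.14 after quantile normalization. The data therefore do not resolve whether the members differ from each other in their response.

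The same was done against miR-143 and miR-145, a pair of smooth muscle microRNAs made from 1 cluster. miR-199a-3p had a log2 ratio to this pair of 0.01, 0.13 and -0.16 in Dicer_KO aortas, against 0.15, -0.09 and -0.06 in Dicer_WT aortas, a difference of -0.01 (exact permutation p = 1, adjusted p = 1), which was -0.18 after quantile normalization. The spread of this ratio was 0.146 in Dicer_KO and 0.134 in Dicer_WT aortas (SD, n = 3 each), the smallest among the 9 ratios in either genotype. miR-199a-5p differed from the pair by 0.16 (exact permutation p = 0.5, adjusted p = 0.643) and miR-214 by -0.31 (exact permutation p = 0.4, adjusted p = 0.643). Against the miR-29 family (miR-29a, miR-29b and miR-29c), which restrains collagen and other matrix genes, the differences were larger. They were -0.73 for miR-214, -0.43 for miR-199a-3p and -0.26 for miR-199a-5p (exact permutation p = 0.3, 0.3 and 0.5, adjusted p = 0.643 each). With 1 aorta left out they ranged from -1.18 to -0.41 for miR-214, from -0.64 to -0.21 for miR-199a-3p and from -0.40 to -0.09 for miR-199a-5p. The values farthest from 0 were those without Dicer_KO replicate 1. Those nearest to 0 were without Dicer_KO replicate 3 for miR-214 and miR-199a-3p, and without Dicer_KO replicate 2 for miR-199a-5p. For miR-214 over miR-29 the Dicer_KO aortas were at 0.17, -0.99 and -1.36, against 0.26, -0.38 and 0.12 in Dicer_WT aortas, so that replicate 1 again lay among the Dicer_WT aortas.

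Other microRNAs of stromal cells were placed beside the members. Of a stromal list of 11 microRNAs, 9 were tested, 8 lay below 0, as did 78.2% of all assays, and 0 passed in either direction. Their median log2 fold change was -0.45 beside -0.42 over all assays. Relative to U87 and Y1, 3 lay below and 6 above 0, with a median of 0.10 beside 0.16 over all assays. miR-152 and miR-140, which is abundant in cartilage, had -0.85 ± 0.262 and -0.78 ± 0.234 (SE, n = 3 each, limma adjusted p = 0.120 and 0.110). miR-143 and miR-145 had -0.76 and -0.42 (adjusted p = 0.137 and 0.231), and miR-125b-5p -0.08 (adjusted p = 0.739). The genotypes did not overlap for miR-140, miR-143, miR-145 and miR-152, lower in Dicer_KO like 32.6% of all assays, although for miR-145 the nearest aortas were at 0.962 in Dicer_KO and 0.963 in Dicer_WT. Without Dicer_KO replicate 1, 3 of the 9 fell, namely miR-140, miR-143 and miR-152 (limma adjusted p = 0.0475, 0.0445 and 0.0435), beside 14.6% of all assays in that fit. The 1 stromal assay above 0 was miR-455, at 0.19 (limma adjusted p = 0.396), also without overlap, higher in Dicer_KO like 2.39% of all assays. Its nearest aortas were at 1.08 in Dicer_KO and 1.07 in Dicer_WT, and without normalization it was at -0.031.

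Of 9 microRNAs linked to matrix and fibrosis, 9 were tested, 8 lay below 0, beside 78.2% of all assays, and 0 passed in either direction, with a median of -0.24. This direction turned with the scale. With mean centring 1 lay below and 8 above 0 (median 0.13), likewise relative to U87 and Y1 (median 0.28), and after quantile normalization 3 lay below and 6 above (median 0.11). miR-21, which is raised in fibrosing tissue, had -0.54 ± 0.272 (SE, n = 3 each, limma adjusted p = 0.228). miR-29a, miR-29b and miR-29c had -0.07, -0.29 and -0.13 (adjusted p = 0.739, 0.313 and 0.539). On the authors' scale miR-192 was the 1 assay of the list above 0, at 0.64 (limma adjusted p = 0.265), and at 0.37 without Dicer_KO replicate 2. The 6 myeloid and leukocyte markers ran from -1.99 for miR-511 and -1.66 for miR-223 (limma adjusted p = 0.0542 and 0.0641) to -0.09 for miR-142-5p and -0.07 for miR-142-3p (limma adjusted p = 0.755 and 0.802). Their median was -1.13, with 0 of the 6 past the threshold. At a Ct cutoff of 32, with undetected wells missing and among assays detected in all 6 aortas, 3 of the 6 were called lower. Over all assays, 24 of 359, 16 of 365 and 20 of 330 were called lower in these fits. Over 19 alternatives miR-511 passed in 8 and miR-223 in 4, while 4 to 55 of all assays were called lower. With mean centring and relative to U87 and Y1, 2 of the 6 lay above 0.

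Among 329 other assays detected in all 6 aortas, those whose log2 values correlated most with each member were named by a fixed rule, the 5 highest. For miR-214 they were miR-700 (r = 0.992), let-7e (0.985), miR-744 (0.979), miR-877* (0.971) and miR-145 (0.970). For miR-199a-3p they were miR-186 (r = 0.992), miR-365 (0.984), miR-872* (0.978), miR-801 (0.972) and miR-130a (0.972). For miR-199a-5p they were miR-299* (r = 0.967), miR-154* (0.954), miR-29b* (0.949), miR-26a (0.941) and miR-29a (0.938). Over 6 aortas such values are common, and 35, 74 and 9 assays correlated above 0.9 with miR-214, miR-199a-3p and miR-199a-5p. With mean centring, which removes the level shared by an aorta's assays, miR-365 turned to -0.31 with miR-199a-3p. The highest places went to let-7e for miR-214 (0.984), miR-801 for miR-199a-3p (0.977) and miR-26a for miR-199a-5p (0.967).

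The seed of miR-214-3p was shared with 1 other microRNA, which was looked at after its values had been seen. This is miR-761 (chr4:109017669-109017690, plus strand), shown to compare the seeds, again in capitals.
miR-761: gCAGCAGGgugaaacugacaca
miR-761 gave no product in any Dicer_KO aorta (Ct 40 in each), against Ct 31.08, 31.95 and 31.80 in Dicer_WT aortas. It entered the test through Dicer_WT only, and its Dicer_KO values are a constant set for empty wells, so no p-value is given for it. The Dicer_WT values were read late in the PCR. miR-214, with the same seed, was detected in all 6 aortas at Ct 19.69 to 21.98 and did not pass.

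Over the whole array, 349 to 366 assays were detected in the Dicer_KO aortas and 374 to 378 in the Dicer_WT aortas, below Ct 35. The 3 members were detected in all 6 aortas, so no member's value was set or imputed and none entered the test through 1 genotype only. By Ct within an aorta, miR-199a-3p ranked from 21 to 31 among the 335 assays of its card, miR-214 from 41 to 63 and miR-199a-5p from 104 to 118.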

How the data were processed

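MicroRNAs were measured by TaqMan PCR on 2 array cards per aorta. The authors deposited threshold cycles (Ct), in which an empty well is Ct 40, and a table of relative quantities with the fold of each assay. Recomputation showed that the authors' relative quantity, a ratio to the Dicer_WT geometric mean, was referred to the mean Ct of U6, snoRNA135 and snoRNA202, with snoRNA429 added on the second card. Of the 517 deposited fold values, 515 equalled the ratio of arithmetic means within a relative tolerance of 0.001. The software behind these values is not given in the sources used here. In 5 cells a decimal comma was read as a point.

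The values were tested here as log2 relative quantities with limma 3.58.1 in R 4.3.3 (lmFit, eBayes, Benjamini-Hochberg adjustment, threshold 0.05) over 377 assays below Ct 35 in at least 2 of 3 aortas of a genotype, with undetected wells set to Ct 35. The script was tested on simulated data. Ratios were compared by exact two-sided permutation tests in Python (SciPy 1.17.1). The number of arrays limits the precision. Genes named are the members, their star strands, control RNAs, members of the stromal, matrix and marker lists, and the 5 assays most correlated with each member. The members and lists were chosen with earlier results of these data known. Alternatives covered the normalization, the Ct cutoff, the treatment of undetected wells, the filter, a replicate block and each aorta left out.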

Additional observations from a re-analysis of the deposited data

How the results depend on the processing

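The direction of miR-214 and miR-199a-3p was the same under all 19 alternatives tried, and miR-214 passed the limma threshold in 1 of them. Leaving out each aorta in turn, the log2 fold change of miR-214 ranged from -1.34 without Dicer_KO replicate 1 to -0.597 without Dicer_KO replicate 3. Relative to U87 and Y1, values turned to 0.0862 for miR-199a-5p, 0.0798 for miR-199b*, 0.22 for miR-214*, 0.0962 for miR-145, 0.433 for miR-125b-5p, 0.437 for miR-29a, 0.217 for miR-29b and 0.377 for miR-29c. With mean centring they turned to 0.287 for miR-125b-5p, 0.292 for miR-29a, 0.0717 for miR-29b and 0.232 for miR-29c. After quantile normalization miR-29a was at 0.0543 and miR-29c at 0.287, and without normalization miR-455 was at -0.031. The median of all assays was -0.638 without normalization, -0.126 with mean centring, 0.157 relative to U87 and Y1 and 0 after quantile normalization. The ratio of miR-199a-3p over miR-143 and miR-145 ranged from -0.0758 to 0.0689 with 1 aorta left out, with 0.0682 without Dicer_WT replicate 1, and that of miR-199a-3p over miR-199a-5p from -0.36 to 0.0665. After quantile normalization the ratio of the 2 miR-199a arms was 0.0554 and that of miR-199a-5p over miR-143 and miR-145 was -0.239, where the cause was not tested. Assays called lower numbered 4 after quantile normalization, 24 at a Ct cutoff of 32, 16 with undetected wells missing, 13 with Ct 40 as measured, 20 among assays detected in all 6 aortas, and 5 to 55 with 1 aorta left out, the highest without Dicer_KO replicate 1 and 11 without Dicer_KO replicate 2. Assays called higher numbered 1 with mean centring, after quantile normalization and with undetected wells missing, 2 relative to U87 and Y1, at a cutoff of 32 and among assays detected in all 6 aortas, and 0 to 9 with 1 aorta left out. Of the 5 assays most like each member, 2 were shared with mean centring for miR-199a-3p and for miR-199a-5p and 1 for miR-214, and 3 as deviations from the genotype mean for each miR-199a arm. The deviations of same-numbered aortas correlated at 0.179, -0.101 and 0.152, beside -0.26 to 0.177 between aortas of different numbers. With so few aortas these values cannot decide whether the numbers mark pairs, and the main fit did not take them as pairs. With the replicate block, miR-214 stayed at -0.894 (limma adjusted p = 0.137), with 7 assays lower and 0 higher. In that fit miR-199a-3p was at -0.596 (limma adjusted p = 0.0906). Both intervals excluded 0, at -1.778 to -0.009 for miR-214 and -1.006 to -0.186 for miR-199a-3p (limma unadjusted p = 0.0487 and 0.0178). The interval of miR-199a-5p included 0, at -1.281 to 0.430 (limma unadjusted p = 0.222). No member passed the adjusted threshold with the replicate block. The share of all assays at an unadjusted p under 0.05 was not counted in that fit. In the main fit 24.4% of all assays were lower at that level, so the unadjusted values do not set these members apart.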

Other observations

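The stromal microRNAs miR-99a and miR-100 gave no product (Ct 40) in any of the 6 aortas, so these assays say nothing about their level in either genotype.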
